A study of Rattus norvegicus with 3 samples.

Results

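Inflammatory messengers of the best known kind, 4 cytokines and 6 chemokines, were followed in rat brainstem. Tnf, Il1b, Il1a and Il6 encode the cytokines tumour necrosis factor, interleukin-1 beta, interleukin-1 alpha and interleukin-6. Cxcl1 and Cxcl2 encode CXC chemokines, and Ccl2, Ccl3, Ccl4 and Ccl20 encode CC chemokines. The 10 genes were chosen by symbol: a probe set, the group of short probes that reports 1 transcript on an Affymetrix array, was taken if its only gene symbol in the platform annotation was one of these. That gave 12 probe sets of 31042 that were not controls, and 10 genes of 14217. Tnf and Il1a had 2 probe sets each, and a gene is given by its brighter one over the 3 arrays unless stated otherwise.

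The study measured brainstem 1 h after modelling on 3 arrays, labelled Hand Acu (hand acupuncture), TBI (traumatic brain injury) and Sham. Tissue of 5 rats was mixed, read here as 1 pool behind each array, so each group is 1 array with no replicate. No test could be run, and every difference below is between pools of RNA and has no error of its own. The labels do not say whether the Hand Acu rats were also injured, what the sham procedure was or where needles were placed, and the strain, sex and age of the rats are not given in the sources used here. The protocol names damaged cortex beside brainstem as tissue taken, but the arrays are of brainstem. Values are log2 signals of MAS5, Affymetrix's method that subtracts the signal of mismatched probes, so that a value close to background can be very low on one array and not on another. The median linear signal was between 174.1 and 174.7 on every array. Neuron markers, with a median log2 signal of 13.05, and astrocyte markers, with 13.21, were among the bright genes, and 3 of 5 measured brainstem neuron markers lay above the median of probe sets. Beta-actin, whose 3′ signal exceeds its 5′ signal more the more RNA is degraded, had a 3′ to 5′ ratio of 6.69 (Hand Acu), 6.37 (TBI) and 5.58 (Sham). For GAPDH the ratio was 1.28, 1.20 and 1.25 in the same order, with the Sham array between the others. The part of RNA integrity in the results was not tested.

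In injured brain, cells that die or leak their content are sensed by microglia, the resident immune cells, and by astrocytes and endothelium. Signalling through NF-kappaB then switches on Tnf, the interleukin-1 genes and Il6, which act on other cells, and chemokine genes, whose products attract leukocytes from the blood. These genes are known for very low expression in healthy nervous tissue and for induction within hours of injury. In whole tissue, fewer cells of a type and less RNA per cell cannot be told apart.

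All 10 genes gave little signal. They were chosen with earlier results of these data known, so neither their low signal nor the counts of their differences below are independent results. Shares over all genes are set beside those counts as a description. Of 31 other measured cytokines and chemokines, 6 lay above the median of all probe sets. The mean log2 signals of the 10 over the 3 arrays ran between 3.08 for Tnf and 6.70 for Ccl3, with a median of 5.36. Of these, 10 of 10 lay below 7.44, the median of all probe sets. On a linear scale their highest value was 118 (Ccl3 on the TBI array), where the median signal of an array was about 174. As a stand-in for background, 44 genes of organs outside the brain were used, such as those of lens crystallins, milk caseins, sperm protamines and digestive enzymes. Probe sets differ in how brightly they bind, so signals of different genes can be compared only roughly. The 44 genes had a median of 3.45 in mean log2 signal, with a 95th percentile of 6.08. Of the 10 messengers 9 were above that median, all but Tnf, and 4 were above 6.08: Il1b, Ccl2, Ccl3 and Ccl4. This split holds for the mean over the arrays and not for each array. On the Hand Acu array Il1b, at 6.30, was below the 95th percentile of that array, 6.48. On the TBI array Cxcl1, at 6.10, was above that of its array, 6.05. On the Sham array Il1b, at 5.40, and Ccl4, at 5.50, were below that of theirs, 5.95. Ccl2 and Ccl3 were above the 95th percentile on all 3 arrays.

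**Figure D1:**
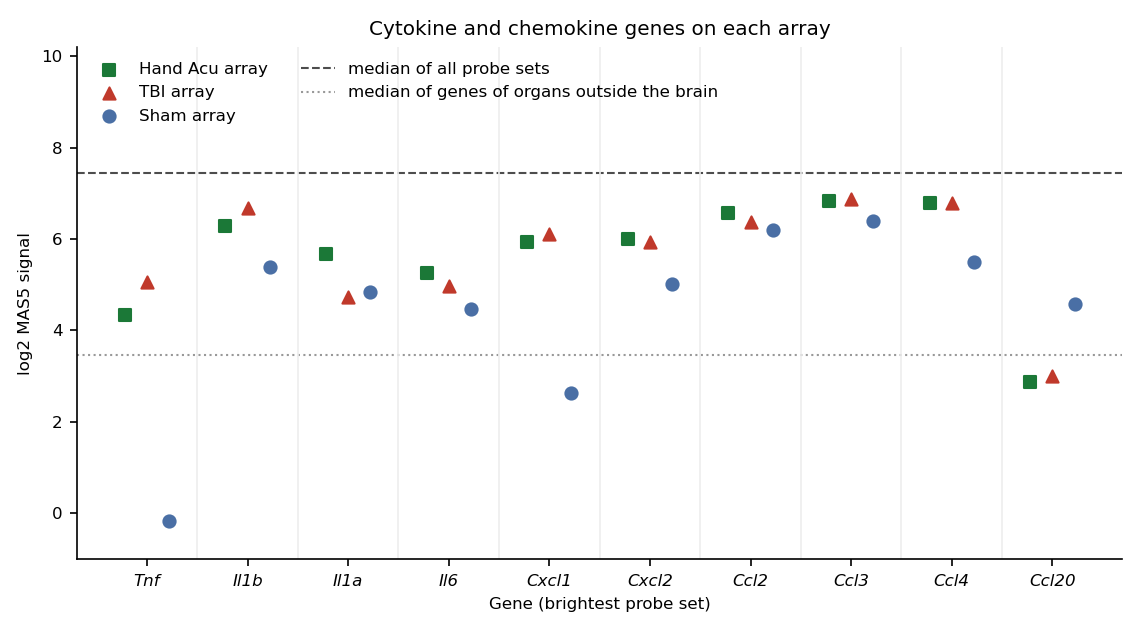
Log2 MAS5 signal (vertical axis) of 10 cytokine and chemokine genes on the Hand Acu (squares), TBI (triangles) and Sham (circles) arrays, 1 array per group, with the median of all probe sets (dashed, 7.44) and of 44 genes of organs outside the brain (dotted, 3.45). The Sham array has the lowest value for 8 of 10 genes, and Tnf and Cxcl1 show the widest gaps.

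**Figure D2:**
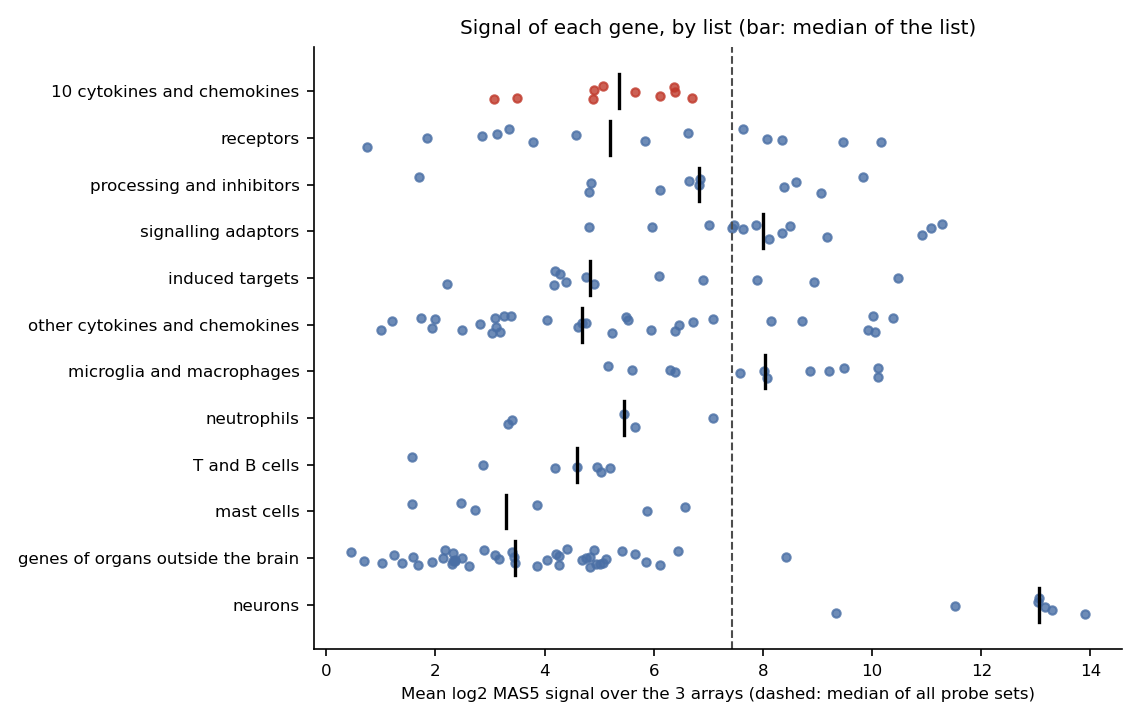
Mean log2 MAS5 signal over the 3 arrays (horizontal axis) of each gene, by list, with the median of a list as a black bar and the median of all probe sets as a dashed line. The 10 cytokines and chemokines lie between 3.08 and 6.70, left of the dashed line, while neuron markers have a median of 13.05.

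The main pattern was a low Sham array. It gave the lowest of the 3 values for 8 of 10 genes, the exceptions being Il1a, lowest on the TBI array, and Ccl20, lowest on the Hand Acu array. The Sham array was lowest for 37.3% of all genes and for 40.1% of the 3123 genes whose mean signal lay within the range of the 10. Summed over the 10 genes, the linear signal was 642 on the Hand Acu, 645 on the TBI and 358 on the Sham array. The Hand Acu and TBI arrays were thus close to each other in sum, and TBI minus Sham and Hand Acu minus Sham share the Sham array, so a low value there enters both.

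To read each difference against the noise at its own level, it was placed among the differences of the 1000 probe sets nearest to it in mean signal. Outside the central 95% of those, a difference is called outside its like-signal range. The width of that range depends strongly on signal: for TBI minus Sham it ran from −3.38 to 3.46 at the level of Tnf and from −0.72 to 0.74 at the level of Ccl3. A 2-fold gap was common at the bottom, where 56.9% of the probe sets like Tnf were at least 2-fold apart between the TBI and Sham arrays, and rare at the level of Ccl3, where 0.9% were.

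For TBI minus Sham, which sets the array labelled TBI against the one labelled Sham, 8 of 10 genes were higher on the TBI array. The median log2 difference was 0.72, against 0.01 over all genes and 0.05 over the 3123 genes within the range of signal of the 10. Of the 10, 4 were at least 2-fold higher, where 3.85% of all genes were, and 1, Ccl20, was at least 2-fold lower, where 3.43% were. With 50 added to each signal before the log, 1 of the 10, Cxcl1, was 2-fold apart and the median was 0.39. In either direction 7.27% of all genes were at least 2-fold apart, but 21.1% of the genes within the range of signal of the 10 were. Beyond their like-signal range were 4 of 10, all higher on the TBI array: Tnf, Il1b, Cxcl1 and Ccl4. The Sham values of Tnf and Cxcl1 lay below 44 and 28 of the 44 genes of organs outside the brain and could not be told from background, so the size of their differences from Sham is not a measured fold. Of all genes 2.55% were above that range and 4.66% outside it in either direction, as were 6.05% of the genes within the range of signal of the 10.

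For Hand Acu minus TBI, which asks how the brainstem with acupuncture differs from that after injury, 5 of 10 genes were higher and 5 lower, and the median was −0.02, against 0.01 over all genes. None of the 10 was 2-fold apart, where 7.1% of all genes were, and 20.5% of those within the range of signal of the 10. None was outside its like-signal range, where 4.88% of all genes were, and 5.09% of those within that range of signal. The widest gaps were 0.95 for Il1a and −0.72 for Tnf, both within their ranges, and the other 8 genes lay between −0.39 for Il1b and 0.28 for Il6. In this part of the signal scale the Hand Acu array read slightly higher in general, with a median of 0.12 over the 3123 genes within the range of signal of the 10.

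For Hand Acu minus Sham, 9 of 10 genes were higher on the Hand Acu array, with a median of 0.87, against 0.02 over all genes. Over the 3123 genes within the range of signal of the 10 the median was 0.15. At least 2-fold higher were 3 genes, where 4.43% of all genes were, and at least 2-fold lower was 1, again Ccl20, where 2.86% were. With 50 added to each signal, 0 of the 10 were 2-fold apart and the median was 0.42. In either direction 7.29% of all genes were 2-fold apart, and 21.1% of those within the range of signal of the 10. Outside their like-signal range were 3 of 10, Tnf, Cxcl1 and Ccl4, each higher on the Hand Acu array. Of all genes 2.6% were above that range and 4.71% outside it in either direction, as were 5.54% of those within the range of signal of the 10.

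**Figure D3:**
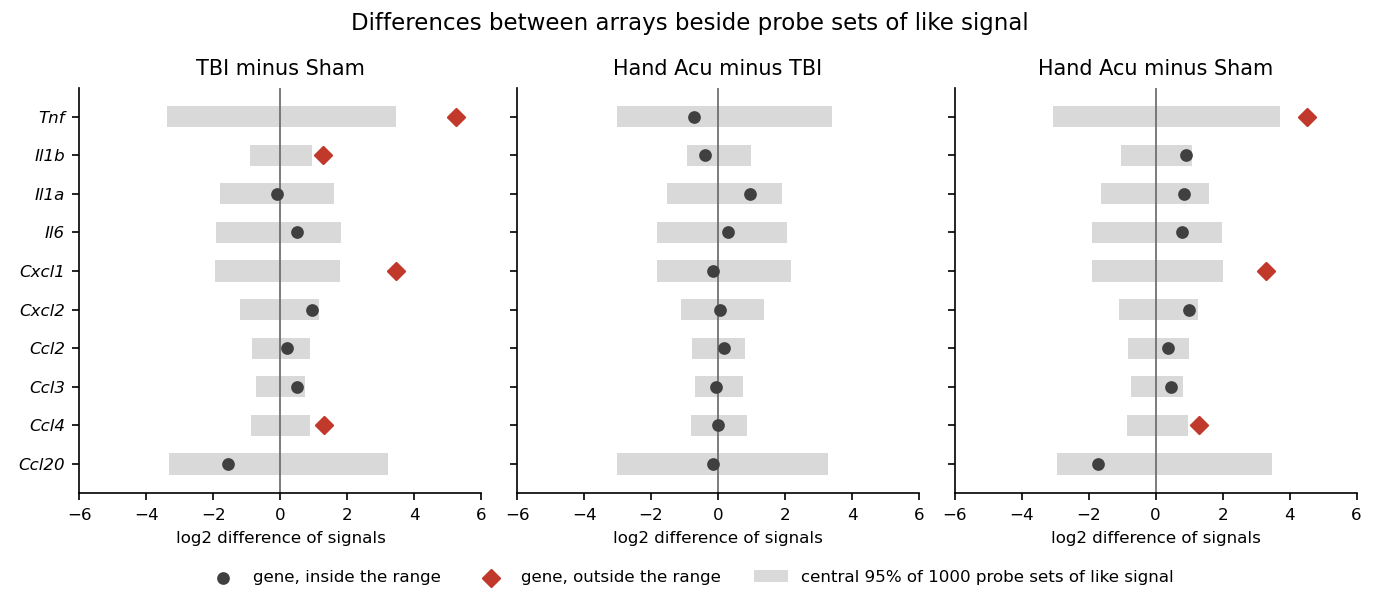
Log2 difference of signals (horizontal axis) of the 10 genes in 3 comparisons, with the central 95% of the differences of the 1000 probe sets nearest in mean signal as grey bars. Diamonds mark differences outside that range: Tnf, Il1b, Cxcl1 and Ccl4 for TBI minus Sham, none for Hand Acu minus TBI, and Tnf, Cxcl1 and Ccl4 for Hand Acu minus Sham.

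Among the cytokines, Tnf, the early messenger of microglia and macrophages, had log2 signals of 4.34 on the Hand Acu, 5.06 on the TBI and −0.17 on the Sham array. In linear units these are 20.3, 33.4 and 0.886 in the same order. Tnf lay above 13.4% of the probe sets of the Hand Acu array and 20.5% of those of the TBI array, but above only 0.409% of those of the Sham array. TBI minus Sham was 5.24, above all 1000 probe sets of like signal, and Hand Acu minus Sham was 4.52, above 997 of them. A difference of 5.24 in log2 was one of only 32.6 linear units, taken from a Sham value below all 44 genes of organs outside the brain. With 50 added to the signal it was 0.71, and Hand Acu minus Sham was 0.47 and inside its range. The dimmer probe set of Tnf did not show the gap: it had 2.48 on the Hand Acu, 2.17 on the TBI and 1.96 on the Sham array, so that TBI minus Sham was 0.21 and within its range.

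Il1b, the interleukin-1 form that the inflammasome processes for release, had 6.30 on the Hand Acu, 6.68 on the TBI and 5.40 on the Sham array. TBI minus Sham was 1.28 (2.43-fold), above 994 of 1000 like-signal probe sets, whose central range ended at 0.95. With 50 added to the signal it was 0.73, short of 2-fold and still outside its range. The Sham value lay below 5.95, the 95th percentile of genes of organs outside the brain on that array, so this fold is uncertain in size. Hand Acu minus Sham was 0.90, inside a range that ended at 1.08, and Hand Acu minus TBI was −0.39. Il1b lay below 3 of the 44 genes of organs outside the brain on the Hand Acu, below 1 on the TBI and below 4 on the Sham array.

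Il1a encodes interleukin-1 alpha, which dying cells can release as an alarm signal. Its brighter probe set had 5.68 on the Hand Acu, 4.72 on the TBI and 4.83 on the Sham array, so that TBI minus Sham was −0.11. Its dimmer probe set had 5.32 on the Hand Acu, 5.26 on the TBI and 0.47 on the Sham array. That probe set gave 4.79 for TBI minus Sham and 4.85 for Hand Acu minus Sham, both above 99.9% of like-signal probe sets. The brighter and dimmer probe sets of Il1a thus differed as those of Tnf did, with a very low Sham value in only 1 of the 2.

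**Figure D4:**
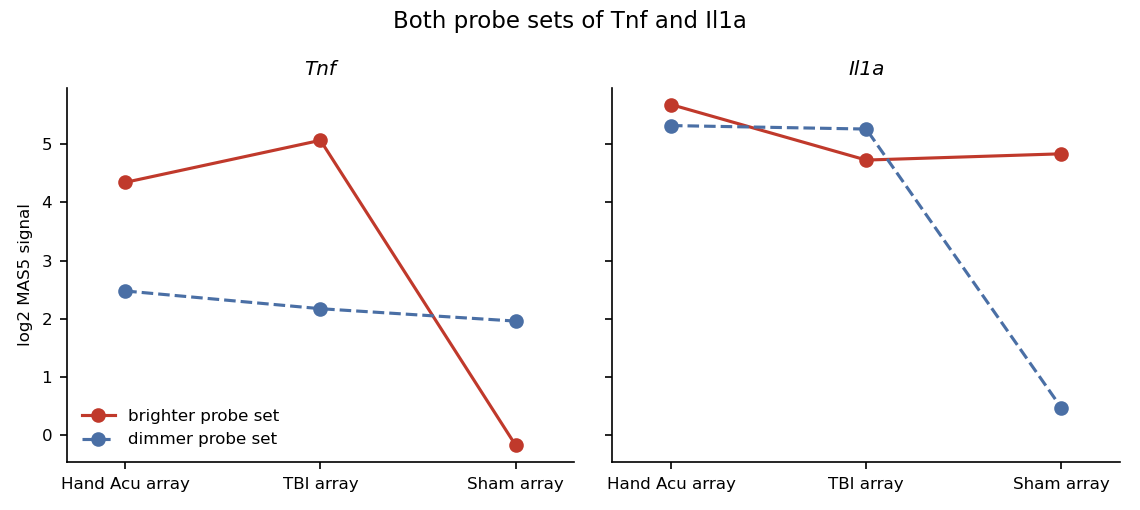
Log2 MAS5 signal (vertical axis) of both probe sets of Tnf (left) and Il1a (right) on the Hand Acu, TBI and Sham arrays, with the brighter probe set as a solid line and the dimmer one dashed. The Sham value is far below the others in the brighter probe set of Tnf (−0.17) and the dimmer one of Il1a (0.47), and not in the other probe set of each gene.

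Il6, the cytokine that signals through the shared receptor chain gp130, had 5.27 on the Hand Acu, 4.98 on the TBI and 4.48 on the Sham array. Its order was the common one, lowest on the Sham array, but TBI minus Sham of 0.50 and Hand Acu minus Sham of 0.79 were both inside their ranges, which reached 1.80 and 1.99.

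The CXC chemokines Cxcl1 and Cxcl2 attract neutrophils through the receptor Cxcr2. Cxcl1 had 5.94 on the Hand Acu, 6.10 on the TBI and 2.64 on the Sham array. In linear units these are 61.5, 68.7 and 6.23, so that Cxcl1 lay above 29.4% and 32.3% of the probe sets of the Hand Acu and TBI arrays and above 6.82% of those of the Sham array. TBI minus Sham was 3.46, above all 1000 like-signal probe sets, and Hand Acu minus Sham was 3.30, above 998 of them. The Sham value lay below 28 of the 44 genes of organs outside the brain, and with 50 added to the signal the differences were 1.08 and 0.99. Cxcl1 has only 1 probe set here, so the gap could not be set beside a second reading. Cxcl2 had 6.00 on the Hand Acu, 5.94 on the TBI and 5.01 on the Sham array. Its TBI minus Sham of 0.94 and Hand Acu minus Sham of 0.99 were inside ranges that ended at 1.16 and 1.26, just short of 2-fold.

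Promoters are shown because NF-kappaB is the textbook activator of these genes. Its part in the differences between the arrays was not tested. Sequences of RefSeq, build GRCr8, from 250 bases before to 50 after the gene's start, were matched by gene identifier for 7 of the 10 genes: Tnf, Il1b, Il1a, Il6, Cxcl1, Cxcl2 and Ccl20. The kappaB consensus was searched on both strands, with overlapping matches taken as 1 stretch. It was found in 4 of the 7 and in 4.18% of the 33469 promoters of the table. TATAAA, searched on the strand of the gene, was in 3 of the 7 and in 8.80% of all, and TGANTCA, the AP-1 motif, searched on both strands, was in 1 of the 7, Il1a, and in 7.33% of all. The 4 promoters below, 5′ to 3′ on the strand of the gene, are those of 3 genes outside their like-signal range for TBI minus Sham and of Cxcl2, neighbour of Cxcl1. Capitals mark the kappaB stretch or TATAAA. They lie on the minus strand at chr14:17479272-17479571 (Cxcl1), chr14:17467206-17467505 (Cxcl2) and chr3:137036532-137036831 (Il1b), and on the plus strand at chr20:3626435-3626734 (Tnf).
Cxcl1: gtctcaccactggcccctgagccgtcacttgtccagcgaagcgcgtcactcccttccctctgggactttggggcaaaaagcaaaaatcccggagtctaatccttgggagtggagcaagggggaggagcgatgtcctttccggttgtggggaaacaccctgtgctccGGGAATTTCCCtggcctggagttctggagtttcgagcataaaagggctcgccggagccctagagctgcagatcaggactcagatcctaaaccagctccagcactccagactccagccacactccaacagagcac
Cxcl2: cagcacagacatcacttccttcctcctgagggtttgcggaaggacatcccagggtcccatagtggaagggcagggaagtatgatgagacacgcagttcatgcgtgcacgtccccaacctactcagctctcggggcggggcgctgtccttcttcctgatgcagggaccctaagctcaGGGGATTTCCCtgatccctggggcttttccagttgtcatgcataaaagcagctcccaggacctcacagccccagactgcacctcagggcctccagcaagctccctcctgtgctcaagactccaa
Tnf: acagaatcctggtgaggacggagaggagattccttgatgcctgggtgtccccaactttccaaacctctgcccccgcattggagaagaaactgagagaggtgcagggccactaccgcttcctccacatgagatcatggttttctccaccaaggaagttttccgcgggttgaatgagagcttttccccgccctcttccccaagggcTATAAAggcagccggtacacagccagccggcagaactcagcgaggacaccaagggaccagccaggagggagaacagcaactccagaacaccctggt
Il1b: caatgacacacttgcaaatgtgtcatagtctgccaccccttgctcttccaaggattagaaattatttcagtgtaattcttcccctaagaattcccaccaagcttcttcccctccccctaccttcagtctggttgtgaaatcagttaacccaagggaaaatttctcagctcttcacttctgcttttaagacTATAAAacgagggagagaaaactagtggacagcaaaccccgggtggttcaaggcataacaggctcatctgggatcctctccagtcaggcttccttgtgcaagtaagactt

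The kappaB stretch of Cxcl1 began 84 bases before the start and that of Cxcl2 74 bases before it. Il6 held GGGATTTTCC from 68 bases before its start and Ccl20 held GGAAAACCCC from 89 bases before it. Set beside the signals, Cxcl1 was outside its like-signal range and holds a match. Tnf and Il1b were outside and hold none in this window, and Il6, Cxcl2 and Ccl20 were inside and hold one. Il1a, by its brighter probe set, was inside for TBI minus Sham and holds none. Ccl4 was outside, but its promoter was not among those searched. A match in these letters is a description and not a binding site, and a window without one says nothing of the factor.

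Of the CC chemokines, Ccl2, which attracts monocytes through Ccr2, had 6.57 on the Hand Acu, 6.38 on the TBI and 6.20 on the Sham array. Its differences were the smallest of the 10 against Sham in size, except for Il1a in TBI minus Sham, at 0.18 for TBI minus Sham and 0.38 for Hand Acu minus Sham, both inside their ranges. Ccl3 and Ccl4 encode the macrophage inflammatory proteins, which attract monocytes and T cells. Ccl3, the brightest of the 10, had 6.84 on the Hand Acu, 6.88 on the TBI and 6.38 on the Sham array, and its TBI minus Sham of 0.50 was above 906 of 1000 like-signal probe sets, inside the range. Ccl4 had 6.80 on the Hand Acu, 6.79 on the TBI and 5.50 on the Sham array. In linear units these are 111.3, 110.8 and 45.3, and the gap of 65.5 units was the largest of the 10 genes for TBI minus Sham on the linear scale. TBI minus Sham of 1.29 (2.45-fold) was above 995 of 1000 like-signal probe sets and Hand Acu minus Sham of 1.30 (2.46-fold) above 993. With 50 added to the signal both differences were 0.76, short of 2-fold and still outside their ranges. The Sham value of Ccl4 lay below 5.95, the 95th percentile of genes of organs outside the brain on that array, so these folds are uncertain in size.

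Ccl20, the ligand of Ccr6 for Th17 and dendritic cells, went the other way. It had 2.87 on the Hand Acu, 3.01 on the TBI and 4.58 on the Sham array, so that the Sham array was the highest. TBI minus Sham of −1.58 and Hand Acu minus Sham of −1.72 were past 2-fold and still well inside their like-signal ranges, whose lower ends were −3.33 and −2.94. On the Hand Acu array 29 of the 44 genes of organs outside the brain were brighter than Ccl20, on the TBI array 24 and on the Sham array 14.

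A value far down on 1 array was seen on each array. The Sham array was at least 2-fold below both others for 3 of the 10 genes, Tnf, Cxcl1 and Ccl4, and for 6.85% of the 3123 genes within their range of signal. The TBI array stood so for 6.24% of these genes and the Hand Acu array for 4.64%, with none of the 10 genes in either. These shares pool levels of signal that differ in spread: at the level of Ccl4 only 2.7% of like-signal probe sets were at least 2-fold apart for TBI minus Sham and 4.0% for Hand Acu minus Sham, against 56.9% and 57.1% at that of Tnf. Of the 44 genes of organs outside the brain the Hand Acu array was at least 2-fold below both others for 3, the TBI array for 7 and the Sham array for 4. Outside their like-signal range were 3 of the 44 for TBI minus Sham, 3 for Hand Acu minus TBI and 2 for Hand Acu minus Sham, and the Sham array was the lowest for 20. The shares of all genes outside were 4.66%, 4.88% and 4.71% in that order, and the Sham array was the lowest for 37.3%. For TBI minus Sham 10 of the 44 were past 2-fold upward and 8 downward, with a median of 0.28. A pair of pancreatic enzyme genes of that list, Cel and Ctrb1, was also low on the Sham array: Cel had 4.83 on the Hand Acu, 4.94 on the TBI and 1.83 on the Sham array, and Ctrb1 had 4.07, 5.01 and 1.27 in that order. They were named after their values were seen.

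The receptors of these messengers were measured for 14 of 16 listed symbols. For TBI minus Sham their median was 0.04 and 0 of 14 were outside the like-signal range, where 4.66% of all genes were. For Hand Acu minus TBI the median was 0.37 with 2 of 14 outside, Ccr2 and Ackr1, both higher on the Hand Acu array, and for Hand Acu minus Sham it was 0.62 with 1 of 14 outside, Ccr6. Of all genes 4.88% and 4.71% were outside in these comparisons, and over all genes below the median of probe sets the median difference was 0.09 for Hand Acu minus TBI and 0.11 for Hand Acu minus Sham. Only 5 of the 14 lay above the median of probe sets. Among those, Ackr1, the venule receptor that binds chemokines without signalling, had 9.61 on the Hand Acu, 9.21 on the TBI and 9.60 on the Sham array. Tnfrsf1a, the main Tnf receptor, had 8.26, 8.18 and 8.59 and Il6r 7.50, 7.96 and 7.43 in the same order. Unlike Ackr1, Tnfrsf1a and Il6r were within their ranges in every comparison. The receptor of Cxcl1 and Cxcl2, Cxcr2, had a mean of 3.13 and Ccr2, the receptor of Ccl2, of 0.75. Ccr2 had 2.49 on the Hand Acu, −1.43 on the TBI and 1.19 on the Sham array, and Ccr6 had 5.00, 3.83 and 1.24. Each value of Ccr2 and the Sham value of Ccr6 lay below the median of genes of organs outside the brain on its array.

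Genes that process or restrain these signals, 11 of 12 measured, had medians of 0.01 for TBI minus Sham, −0.09 for Hand Acu minus TBI and 0.03 for Hand Acu minus Sham, and 0 were outside their range in any of them. The shares of all genes outside were 4.66%, 4.88% and 4.71% in that order, and at such shares 0 of 11 says little. Tnfaip3, which ends NF-kappaB signalling, had 8.53 on the Hand Acu, 8.80 on the TBI and 8.50 on the Sham array. Nfkbia, the inhibitor that holds NF-kappaB in the cytoplasm, had 9.81, 9.94 and 9.75, and Adam17, the protease that sheds Tnf from cells, 8.98, 9.11 and 9.10 in the same order. For TBI minus Sham, Tnfaip3 ranked above 90.4% and Nfkbia above 88.2% of like-signal probe sets.

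Adaptors and kinases of the pathways, 14 of 15 measured and 10 of them above the median of probe sets, had medians of −0.13, 0.10 and −0.03 in the order of the 3 comparisons, with 1 of 14 outside in each. Chuk, a kinase that activates NF-kappaB, had 11.08 on the Hand Acu, 10.88 on the TBI and 11.27 on the Sham array, and TBI minus Sham of −0.39 was outside its range. Stat3, the factor that carries the Il6 signal, had 7.53, 7.83 and 8.25 in the same order, with Hand Acu minus Sham of −0.71 outside its range. Rela, the p65 subunit of NF-kappaB, had 8.48, 8.18 and 8.38 and stayed within its ranges, and Traf2 was the gene outside for Hand Acu minus TBI, at −1.04. Each of these 3 differences was negative, but each came from another comparison. Of all genes 4.66%, 4.88% and 4.71% were outside in the order of the 3 comparisons.

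Induced targets, 12 of 13 measured, had medians of 0.27, −0.02 and 0.27 in the order of the 3 comparisons, with 0 of 12 outside in each. The shares of all genes outside were 4.66%, 4.88% and 4.71%, and at such shares 0 of 12 says little. Vcam1, an adhesion molecule of activated endothelium, had 10.61 on the Hand Acu, 10.44 on the TBI and 10.39 on the Sham array. Ptgs2, the inducible cyclooxygenase, had 9.07, 8.98 and 8.74, and Timp1, an inhibitor of matrix proteases, 7.78, 8.15 and 7.77. These 3 were the targets above the median of probe sets.

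Other cytokines and chemokines, 31 of 32 measured and 25 of them below the median of probe sets, had medians of 0.14 for TBI minus Sham, −0.03 for Hand Acu minus TBI and 0.33 for Hand Acu minus Sham. Outside their ranges were 4 of 31 in the first comparison, 2 higher and 2 lower, 2 in the second, Il12b and Ccl22, and 1 in the last, Ccl11 at −3.15, where 4.66%, 4.88% and 4.71% of all genes were outside. Il12a, a subunit of interleukin-12, had 6.60 on the Hand Acu, 7.04 on the TBI and 5.73 on the Sham array, with TBI minus Sham of 1.31. Ccl19, a lymphocyte attractant, had 7.19, 7.40 and 6.67. In the other direction Il12b, the other subunit of interleukin-12, had 4.69, −0.03 and 4.60, so here it was the TBI array that was far down, and Ccl22 had 6.10, 4.04 and 5.58. The bright genes of the list, Cxcl12, a chemokine that brain expresses at rest, with 10.47, 10.50 and 10.19, and Cxcl14 with 10.06, 10.08 and 9.89, stayed within their ranges. So did Csf1, the growth factor of microglia, with a mean of 8.71 and Hand Acu minus Sham of 0.48.

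Markers of cells that could supply the messengers were read on the same arrays. Beside the counts below, 4.66% of all genes were outside their like-signal range for TBI minus Sham. The share was 4.88% for Hand Acu minus TBI and 4.71% for Hand Acu minus Sham. All 12 microglia and macrophage markers were measured, 8 of them above the median of probe sets, with a summed linear signal of 4785 on the Hand Acu, 5430 on the TBI and 4706 on the Sham array. Outside its range was 1 of the 12, P2ry12, a purine receptor of microglia, with 9.98 on the Hand Acu, 10.43 on the TBI and 9.92 on the Sham array, for TBI minus Sham (0.51) and Hand Acu minus TBI (−0.45). Of 6 astrocyte markers Gfap, a filament protein, was outside in the same comparisons, at 0.30 and −0.28. The list did not move together, since 3 of the 6 were higher and 3 lower for TBI minus Sham, with a median of 0.03. Of 7 neuron markers Rbfox3 was outside for TBI minus Sham, at −0.31, and for Hand Acu minus Sham, at −0.27. The list went the other way, with 6 of 7 higher in each of these comparisons and medians of 0.08 and 0.07. Of the 10 neutrophil markers 5 were measured and none lay above the median, and the Sham array was the lowest for 5 of 5. That was not particular to them, since the Sham array was also the lowest for 6 of 7 neuron markers. It was so for 5 of 7 T and B cell, 6 of 12 microglia and macrophage and 3 of 6 astrocyte markers, and for 37.3% of all genes. The neutrophil markers summed to 340 on the Hand Acu, 267 on the TBI and 189 on the Sham array. S100a9, the brightest of them, had 7.46, 7.14 and 6.67 in the same order, with Hand Acu minus Sham of 0.79 outside its range, and Mmp8 had 4.98, 4.69 and 0.53, again with a Sham value far down and outside its range in both comparisons with Sham. T and B cell markers, 7 of 9 measured with a highest mean of 5.20 (Cd4), summed to 244 on the Hand Acu, 161 on the TBI and 124 on the Sham array. Among them Cd3g, a chain of the T cell receptor complex, had 6.26, 5.16 and 2.37 in the same order and was the 1 of 7 outside its range, in both comparisons with Sham. Others went the other way, within their ranges: Cd3e had −0.61 for TBI minus Sham and Cd8a −1.39 for Hand Acu minus Sham. The mast cell markers, 6 of 7 measured, summed to 203, 174 and 184. Genes of organs outside the brain summed to 1266, 1296 and 1145. The part of leukocytes in the differences of the 10 genes was not tested.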

How the data were processed

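The deposited values are log2 signals: per the submitters' processing notes the authors used MAS5, with no version. Raised to the power of 2, each array had a trimmed mean (2% off either end) of 500.0, which gave its log base and its scaling. Detection calls were not used here. The arrays hold 31099 probe sets, of which 57 were controls and left out. The platform annotation of 2016 gave 20826 of the others 1 symbol, 436 several and 9780 none. All 10 genes were found by identifier in RefSeq (GRCr8), and no genome was used. Precision is limited by the number of arrays.

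The members and all lists were chosen with earlier results of these data known. Named genes were the 10 members and, of each pathway list, up to 3 genes at or above the median signal with the largest departure in rank among like-signal probe sets; others were named after their values were seen. Like-signal probe sets were the 1000 non-control probe sets nearest in mean log2 signal, the gene's own left out. The ranks are a description of these arrays. Calculations used Python 3.11.15, numpy 2.4.6, pandas 2.3.3, scipy 1.17.1 and matplotlib 3.10.9, and the ranking was first tested on simulated data.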

Additional observations from a re-analysis of the deposited data

How the results depend on the processing

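Alternatives were other numbers of like-signal probe sets (500 and 2000), only probe sets with 1 symbol, likeness by the 2 arrays compared, quantile normalization, centring on the median, adding 50 to the signal, averaging a gene's probe sets, taking the dimmest one, central ranges of 90% and 99%, and thresholds of 1.5-fold and 3-fold. The number of genes outside their like-signal range stayed within 1.5 times for all of them: 3 or 4 for TBI minus Sham, 0 for Hand Acu minus TBI and 2 or 3 for Hand Acu minus Sham. Cxcl1 was outside in 12 of 12 settings against Sham in both comparisons. The 12 include the main setting, and the central 90% cannot remove a gene from the count. For a gene with 1 probe set, such as Cxcl1, Ccl4 and Il1b, averaging and the dimmest probe set repeat the main value. Such counts therefore cannot be compared with those of Tnf and Il1a. Tnf was outside in 10 for TBI minus Sham and in 9 for Hand Acu minus Sham, not with its probe sets averaged or the dimmest one, nor, for Hand Acu minus Sham, with the offset of 50. Ccl4 was outside in 12 and 11 of 12 for TBI minus Sham and Hand Acu minus Sham, and Il1b in 11 for TBI minus Sham; with the central 99% Il1b left the count for TBI minus Sham and Ccl4 that for Hand Acu minus Sham. Il1a came into the count for Hand Acu minus Sham with its probe sets averaged or the dimmest one, and for TBI minus Sham with the dimmest one. All 10 genes lay below the median signal in every setting that could change it.

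The counts at 2-fold depended most on the offset, which by construction shrinks differences of low signals: with it 1 gene was 2-fold apart for TBI minus Sham in place of 5, and 0 for Hand Acu minus Sham in place of 4. The medians were then 0.39 and 0.42 in place of 0.72 and 0.87. At 3-fold 2 genes passed for TBI minus Sham, where 4.02% of all genes did. At 1.5-fold 2 passed for Hand Acu minus TBI, where 13.2% of all genes did, and 8 for Hand Acu minus Sham, where 14.3% did. With probe sets averaged the TBI minus Sham median was 1.11. With the dimmest probe set Tnf had 0.21 and Il1a 4.79 for TBI minus Sham, where the brighter ones had 5.24 and −0.11, and the Hand Acu minus TBI median of the 10 was 0.03 in place of −0.02. No paired analysis was possible because each group is 1 array. Without detection calls, a value cannot be separated from background on its own array.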
